A study of Rattus norvegicus with 8 samples.

Results

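PEG-fused sciatic nerve allografts were compared with negative control allografts at 14 days postoperatively (PO), across every gene with at least 10 normalized read counts in at least 2 of the 6 grafts. Of 32545 Ensembl genes in the table, 15968 met this rule and were tested, 10231 had no read in a graft, and 6346 had reads but too few. A peripheral nerve allograft (PNA) is a nerve segment from a donor animal sutured into a gap in the nerve of a host. In the 3 PEG-fused PNAs the apposed cut ends received polyethylene glycol (PEG), a polymer that makes closely apposed membranes merge. In the 3 negative control (NC) PNAs the same hypotonic saline, methylene blue and sutures were used and PEG was withheld. A pair of unoperated sciatic nerves (Unop) is quoted for level only.

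All animals were outbred female Sprague Dawley rats (Envigo), 3 to 6 months of age. Donor and host were neither tissue-matched nor given immunosuppression, and both kinds of graft carried that mismatch. Each library came from 1 animal, so the 3 replicates of a group also differ in their pairing of donor and host. A PNA holds cells of the donor and of the host, and reads were not assigned to either. Every PNA library held transcripts of Schwann cells, with Sox10 between 1196 and 2686 normalized counts and S100b between 4875 and 16606. The study notes that muscle adhering to NC PNAs was not removed in full. Skeletal muscle fibre genes took 3.19% of the reads of NC 1 and 1.22% of those of NC 3, against 0.0541% in NC 2 and between 0.0140% and 0.0798% in PEG-fused PNAs. NC 1 and NC 3 therefore stand apart from NC 2 in muscle, and some comparisons are also given below with NC 2 as the only NC library. Counts not given so can move too. Fewer MHC class I, cytotoxic effector, chemokine and inflammatory cytokine genes were called lower in that fit.

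An unmatched graft is normally destroyed by recipient T cells that recognise donor major histocompatibility complex (MHC) proteins. Interferon gamma from such cells acts through STAT factors and IRF1 to raise MHC proteins, peptide-loading machinery, guanylate-binding proteins and the chemokines that call in more T cells. In an injured nerve, by contrast, Schwann cells drop the myelin program, take on a repair state, and work beside macrophages that digest myelin and fibroblasts that lay down matrix.

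DEGs are genes that differed more than 2-fold (log2 fold change past 1 or -1) with an adjusted p under 0.05, from limma with Benjamini-Hochberg adjustment over all 15968 genes. A gene is called upregulated, or said to have risen, if it was a DEG higher in PEG-fused PNAs, and downregulated, or said to have fallen, if it was a DEG lower there. There were 706 upregulated genes, 4.42% of those tested, and 1163 downregulated genes, 7.28%, or 11.7% in either direction. By adjusted p alone, without the fold threshold, 15.5% of tested genes were higher and 14.3% lower. Counts of the gene lists below are to be read against these shares. The downregulated genes changed more: their median log2 fold change was -1.96, against 1.34 for upregulated genes. More than 4-fold differences were found in 562 downregulated and 97 upregulated genes, and more than 8-fold differences in 237 and 19. The median log2 fold change of all tested genes was -0.00. Downregulated genes together took between 13.2% and 14.0% of the reads of an NC PNA, between 3.36% and 5.06% in a PEG-fused PNA and between 1.74% and 2.17% in a Unop nerve. Upregulated genes took between 5.48% and 6.80% in PEG-fused PNAs, between 2.17% and 2.36% in NC PNAs and between 4.73% and 4.99% in Unop nerves. Without PEG 2, 450 genes were upregulated. In all of this a bulk measurement cannot tell fewer cells of a type from less RNA per cell.

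**Figure D1:**
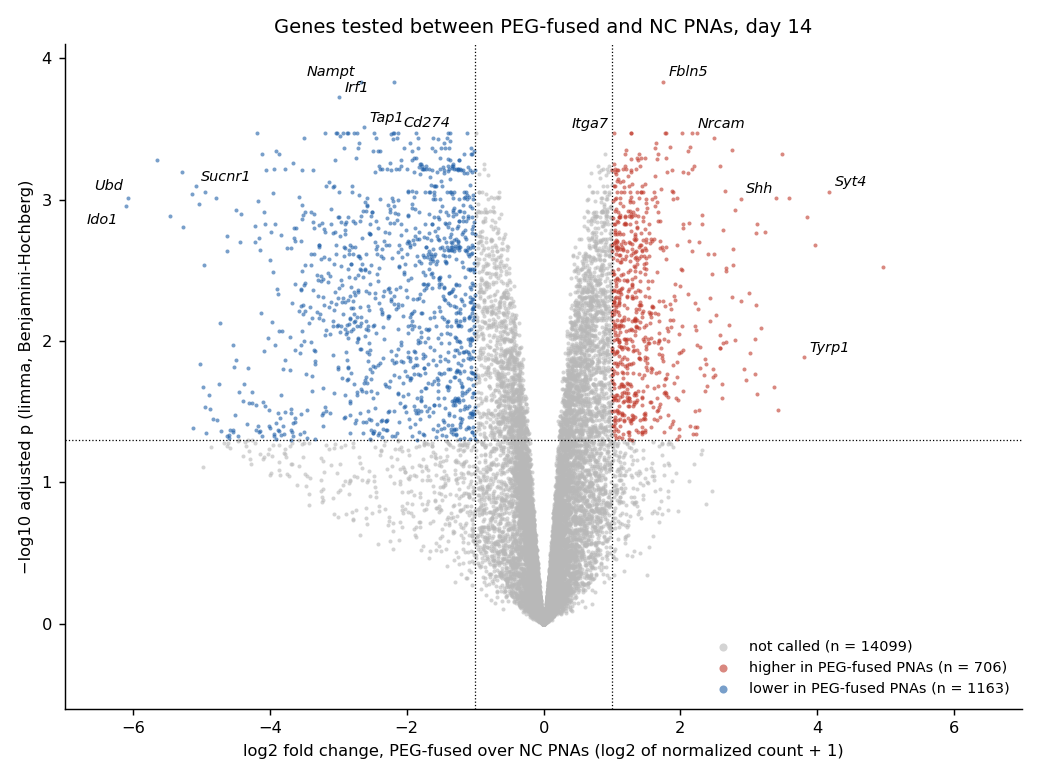
Each point is 1 of the 15968 tested genes, with the log2 fold change of PEG-fused over NC PNAs on the x axis and -log10 of the adjusted p (limma) on the y axis; dotted lines mark the thresholds for DEGs. The 1163 downregulated genes (blue) spread further from 0 than the 706 upregulated genes (red).

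Values below are normalized read counts, in the order of replicates 1, 2 and 3 and with PEG-fused PNAs set against NC PNAs, and log2 fold changes are given with their standard error (SE), in brackets where they follow the values. Depth was between 32557208 and 39498510 reads on genes in a PNA. The genes with the smallest adjusted p had replicates that lay close together within each group. Fbln5, which encodes fibulin 5, a protein needed to assemble elastic fibres, stood at 2447, 2925 and 2676 in PEG-fused PNAs and at 806, 766 and 809 in NC PNAs. Its log2 fold change was 1.75 ± 0.09 (adjusted p = 0.00015). Nampt, the rate-limiting enzyme of NAD salvage, stood at 3328, 2774 and 2547 against 18921, 16545 and 19572, with Unop nerves at 4003 and 3199. The Nampt log2 fold change was -2.67 ± 0.13 (adjusted p = 0.00015). For both genes the groups lay far apart. The 3 PEG-fused values lay above the 3 NC values in 704 of 706 upregulated genes and below them in 1130 of 1163 downregulated genes, against 26% and 23.8% of all tested genes. In every DEG whose replicates are listed below the groups did not overlap. DEGs were called on these same values, and some were picked for non-overlap, so the separation is not further support.

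Interferon-responsive genes were lower in PEG-fused PNAs. Of 32 interferon-induced genes tested, all had a negative log2 fold change, 17 fell and none rose, with a median of -1.65. Irf1, the transcription factor that relays the interferon gamma signal to many of these genes, stood at 2941, 2015 and 2189 in PEG-fused PNAs, at 20631, 18723 and 16665 in NC PNAs and at 1378 and 1099 in Unop nerves. Its log2 fold change was -2.98 ± 0.16 (adjusted p = 0.00019), and the highest PEG-fused PNA lay far below the lowest NC PNA. Socs1, an inhibitor of cytokine receptor signalling that interferon itself induces, stood at 159, 90.7 and 84.4 against 1560, 1025 and 1127, a log2 fold change of -3.50 ± 0.27 (adjusted p = 0.00037). The guanylate-binding proteins are GTPases that attack intracellular microbes, and Gbp5 stood at 2172, 1559 and 1493 against 18232, 11143 and 10936. Gbp5 fell by 2.93 ± 0.22 on the log2 scale (adjusted p = 0.00034), and Gbp2 by 1.98 ± 0.28 (adjusted p = 0.0020). The immunity-related GTPases Ifi47 (-2.92 ± 0.24, adjusted p = 0.00043) and Igtp (-2.70 ± 0.21, adjusted p = 0.00039) also fell.

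The members best known as antiviral genes behaved less uniformly across replicates. Mx1, which blocks viral replication, stood at 2404, 6731 and 952 in PEG-fused PNAs and at 24278, 4953 and 4463 in NC PNAs, so the groups overlapped. Its log2 fold change of -1.71 ± 0.80 had an adjusted p of 0.14. For Isg15, a ubiquitin-like protein, PEG 2 at 3015 exceeded NC 2 and NC 3 at 2223 and 1742 (-1.57 ± 0.75, adjusted p = 0.15), and without PEG 2 the gene was a DEG (-2.35, adjusted p = 0.041). Ifit3, an RNA sensor partner, showed the same overlap, with 1487 in PEG 2 and 1272 in NC 3 (-1.70 ± 0.69, adjusted p = 0.096). In these 3 genes, which were chosen after their values were seen, NC 1 was the highest library by a wide margin and PEG 2 the highest of its group.

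Promoter stretches of 8 of the downregulated genes are shown because they hold letters that interferon-activated factors are known to bind. They come from the RefSeq promoters of the GRCr8 assembly, 250 bases before to 50 after each gene start, and 11011 of 15875 tested genes with a symbol had one. Capitals mark the match and the strand is that of the gene. The first set holds TTCNNNGAA, the gamma-activated sequence (GAS) bound by STAT dimers (N is any base).
Irf1, chr10:38417781-38417813, plus strand: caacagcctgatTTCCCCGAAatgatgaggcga
Icam1, chr8:27829726-27829758, plus strand: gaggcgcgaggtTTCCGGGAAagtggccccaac
Ifi47, chr10:33798609-33798668, plus strand: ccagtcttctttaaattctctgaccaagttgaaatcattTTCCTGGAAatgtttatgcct
The second set holds GAAA, any 2 bases and GAAA or, read on the other strand, TTTC, any 2 bases and TTTC, the core of the interferon-stimulated response element (ISRE) bound by IRF and STAT complexes. In Socs1 a pair of matches overlaps.
Tap1, chr20:4668643-4668676, minus strand: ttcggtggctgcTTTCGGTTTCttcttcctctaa
B2m, chr3:129549168-129549201, plus strand: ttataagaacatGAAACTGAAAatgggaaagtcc
Gbp2, chr2:234005684-234005717, plus strand: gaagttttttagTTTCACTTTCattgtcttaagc
Gbp5, chr2:233910931-233910964, plus strand: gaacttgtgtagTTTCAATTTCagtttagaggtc
Socs1, chr10:5389455-5389494, plus strand: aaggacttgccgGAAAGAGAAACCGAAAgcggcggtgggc

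The ISRE core was found on either strand in 67 of 762 promoters of downregulated genes (8.79%), in 5 of 470 of upregulated genes (1.06%) and in 326 of all 11011 tested ones (2.96%). It was in 14 of 25 promoters of the interferon-induced list and 9 of 19 of the MHC class I list. Other immune lists had lower shares: 4 of 14 for cytotoxic effectors, 2 of 12 for MHC class II and 2 of 24 for chemokines. It was in 0 of 15 promoters of the T cell list, 0 of 13 of chemokine receptors and 0 of 11 of dendritic cells. Over all RefSeq promoters the share was 3.92%. GAS was in 8.92% of promoters of downregulated, 7.66% of upregulated and 6.68% of tested genes, and in 8.87% of all RefSeq promoters. TGANTCA, bound by AP-1, was in 8.92%, 6.60%, 5.18% and 7.33% in the same order, and the kappa B motif in 12.7%, 10%, 9.91% and 7.51%. GGAATG, bound by TEAD factors of the Hippo pathway, was in 11.5%, 12.1%, 11.2% and 14.2%. TTTGAA, the cell cycle homology region, was in 15.9%, 12.8%, 12% and 18.3%, and a GAS match whose middle letters are TTT holds it too. These shares were not tested, a match is not a bound site, and no match says only that the letters are not in this window.

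**Figure D2:**
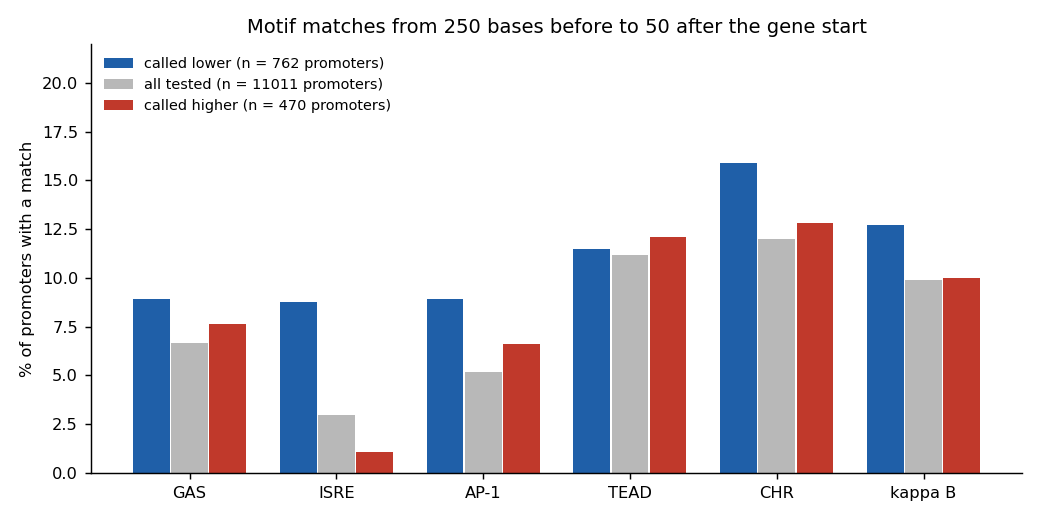
Bars give the percentage of promoters with a match to each of 6 motifs for downregulated (blue), all tested (grey) and upregulated (red) genes. The ISRE bars run from 8.79% for downregulated through 2.96% for all tested to 1.06% for upregulated genes, and the TEAD bars lie between 11.2% and 12.1%.

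Antigen presentation followed the interferon-induced genes. Of 22 genes of MHC class I and its peptide loading, 17 fell and none rose, with a median log2 fold change of -1.76. Tap1, a subunit of the transporter that carries peptides to class I molecules, is a case with tight replicates: 2534, 2207 and 1800 in PEG-fused PNAs, 14720, 14097 and 11375 in NC PNAs, and 820 and 677 in Unop nerves. It fell by 2.62 ± 0.15 on the log2 scale (adjusted p = 0.00031). Psmb9, a catalytic subunit that interferon swaps into the proteasome, stood at 2766, 1635 and 1772 against 15905, 15587 and 12523 (-2.87 ± 0.21, adjusted p = 0.00034). Tapbp, which holds class I molecules at the transporter, fell by 1.87 ± 0.12 (adjusted p = 0.00034). B2m, the invariant light chain, held the most reads of the list and stood at 141733, 80842 and 86681 against 314043, 335977 and 286945 (-1.64 ± 0.27, adjusted p = 0.0034). Nlrc5, the activator of class I genes, stood at 704, 352 and 420 against 3685, 4041 and 3839 (-3.03 ± 0.23, adjusted p = 0.00034). Members that serve all secreted proteins showed no such difference: log2 fold changes were 0.13 ± 0.14 for the chaperone Calr (adjusted p = 0.53) and 0.01 ± 0.11 for Canx (adjusted p = 0.97). Among 33 constitutive proteasome subunits none rose or fell by the definition used here, with a median of -0.05.

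Of 14 genes of MHC class II, which presents antigen to helper T cells, 9 fell and none rose, with a median of -2.21. Ciita, the master activator of class II genes, stood at 1930, 667 and 1142 against 7621, 9754 and 9809, a log2 fold change of -2.98 ± 0.33 (adjusted p = 0.00088). RT1-Da, a class II alpha chain, stood at 81368, 30288 and 29489 against 200870, 255700 and 211154 (-2.41 ± 0.38, adjusted p = 0.0031). Its partner in loading, the invariant chain Cd74, stood at 209954, 78782 and 90105 against 454170, 595766 and 485173 (-2.15 ± 0.37, adjusted p = 0.0043). PEG 1 was the highest PEG-fused PNA for all 3 and still lay below every NC PNA. As a share of reads, class II genes took 1.38%, 0.578% and 0.667% in PEG-fused PNAs, 2.87%, 3.52% and 3.07% in NC PNAs, and 0.164% and 0.116% in Unop nerves. RT1 genes are a multigene family that differs between outbred animals and between donor and host, so reads can be split or lost among near-identical members and values of a single RT1 gene are uncertain.

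**Figure D3:**
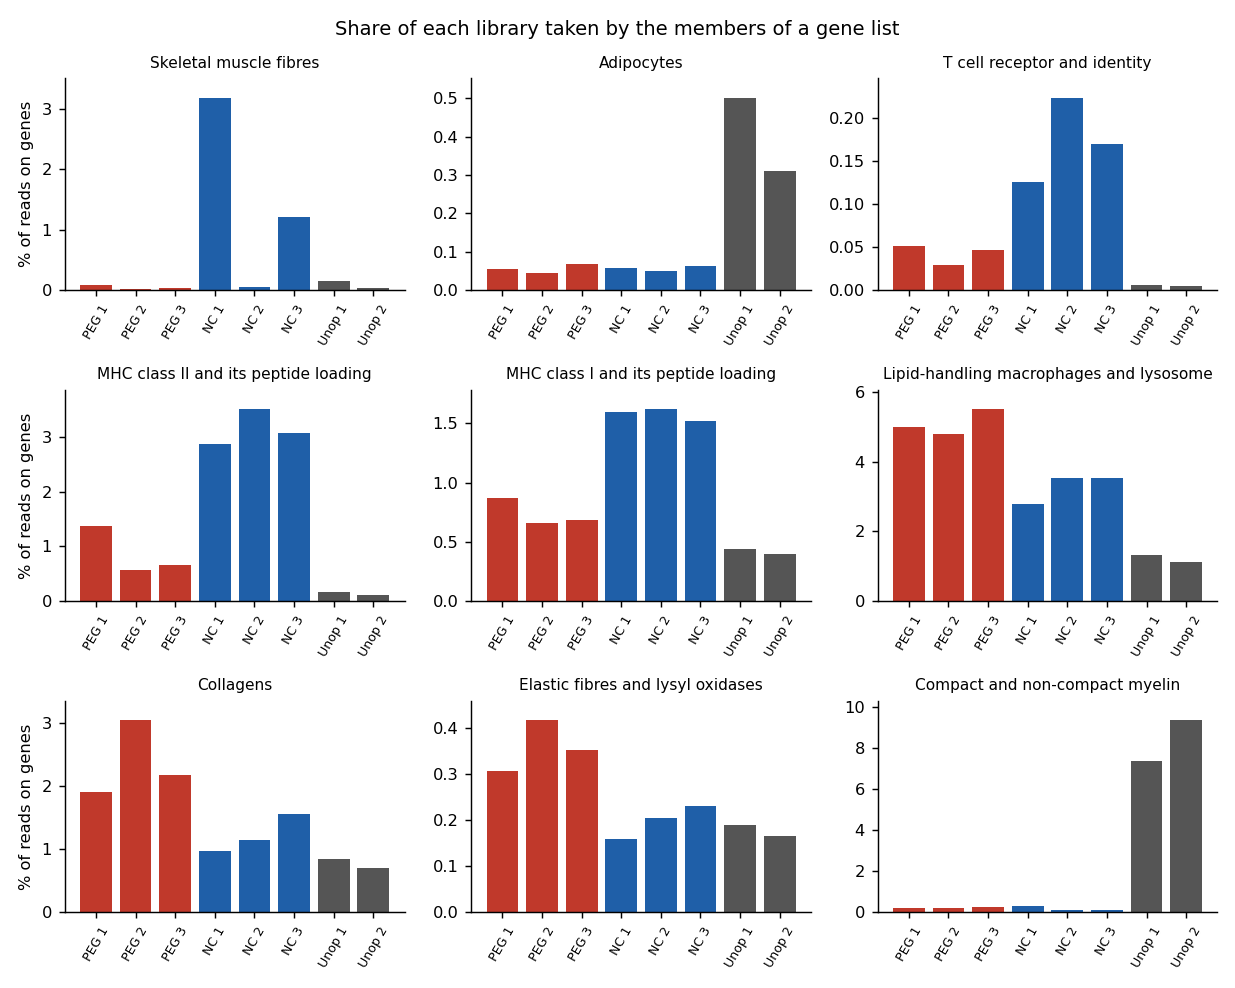
Bars show the percentage of reads on genes taken by the members of 9 gene lists in each of the 8 libraries; each panel has its own y axis starting at 0. Class II genes lie between 0.578% and 1.38% in PEG-fused and between 2.87% and 3.52% in NC PNAs, and muscle fibre genes are high in NC 1 and NC 3 but not in NC 2.

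Some downregulated genes were neighbours in the genome. Of the tested genes with a symbol, 13490 matched RefSeq, and in the RefSeq order of matched genes there were 9 runs of at least 4 adjacent downregulated genes and 0 such runs of upregulated genes. The 9 runs held 51 of the 1163 downregulated genes, and how many runs chance gives was not tested. The longest held 8 genes of the MHC class II and processing region: RT1-Db1, RT1-Ba, RT1-Bb, RT1-DOb, Tap2, Psmb8, Tap1 and Psmb9. A run of 7 genes held killer-cell lectin-like receptors from Klre1 to Klri2, and 6 adjacent genes were Gimap GTPases, which maintain lymphocytes. Another run of 6 held class I genes from RT1-CE10 to RT1-CE1. The chemokine genes Ccl2, Ccl7, Ccl11, Ccl12 and Ccl1 formed a run of 5, as did Gbp5, Gbp7, Gbp4, Gbp2 and Gbp3. RT1-CE10 was not a DEG without PEG 3 or NC 3, nor Ccl2 without PEG 3 or NC 1. With NC 2 as the only NC library, RT1-Ba, Tap2, RT1-CE10, Ccl2 and Ccl12 were not DEGs. The Tap2 entry was low, at 18.5, 16.8 and 16.9 against 41.1, 37.7 and 36.7. Such neighbours are mostly copies of one ancestral gene and can share reads.

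Chemokines, the secreted proteins that guide leukocytes, were lower as a group. Of 31 tested, 18 fell and 1 rose, with a median of -1.63. Cxcl9, Cxcl10 and Cxcl11 are the interferon-induced ligands of CXCR3 on activated T cells. Cxcl9 stood at 3947, 1254 and 1970 in PEG-fused PNAs, at 49817, 37081 and 24509 in NC PNAs and at 481 and 445 in Unop nerves (-4.06 ± 0.40, adjusted p = 0.00062). Cxcl11 stood at 569, 118 and 326 against 11889, 7157 and 5481 (-4.79 ± 0.54, adjusted p = 0.00097), and Cxcl10 fell by 3.01 ± 0.38 (adjusted p = 0.0013). Their receptor Cxcr3 stood at 627, 201 and 599 against 2957, 5584 and 3261 (-3.16 ± 0.51, adjusted p = 0.0033). Cxcl16, a ligand that scavenging macrophages also display, had tighter values of 4305, 3096 and 3203 against 12079, 14535 and 14316 (-1.96 ± 0.16, adjusted p = 0.00039). The exception was Pf4, a platelet and macrophage chemokine, at 4769, 4045 and 5880 against 1965, 2077 and 2479 (1.16 ± 0.23, adjusted p = 0.0078). Without PEG 1, 3 chemokines rose, and with NC 2 as the only NC library 0 did.

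Of 20 chemokine receptors, 10 fell (6 without NC 2) and none rose. Ccr7, which leads dendritic cells and naive T cells to lymph nodes, stood at 247, 92.6 and 144 against 1016, 2033 and 1029 (-3.10 ± 0.40, adjusted p = 0.0015). Adhesion molecules that stop leukocytes on vessel walls were lower as well, with 8 of 15 downregulated and none upregulated. Vcam1, the endothelial ligand of the integrin VLA-4, stood at 1836, 1141 and 1145 against 5374, 6109 and 5595 (-2.09 ± 0.19, adjusted p = 0.00053). Icam1 fell by 1.52 ± 0.14 (adjusted p = 0.00050). Of the integrin partners, Itga4 of VLA-4 fell by 1.16 ± 0.12 (adjusted p = 0.00065) and Itgal of LFA-1 by 1.52 ± 0.18 (adjusted p = 0.0012). None of 10 endothelial marker genes was a DEG. Cdh5, the junction protein of endothelium, stood at 5673, 4236 and 4704 against 4157, 2929 and 4118, a log2 fold change of 0.39 ± 0.16 (adjusted p = 0.098).

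Lymphocyte transcripts fell almost throughout. Of 20 genes of the T cell receptor and T cell identity, 19 fell, with a median of -3.02, and of 16 cytotoxic effector genes 15 fell, with a median of -2.99. None of either list rose. Cd28, the costimulatory receptor of T cells, stood at 76.0, 45.8 and 57.2 against 579, 570 and 482 (-3.19 ± 0.23, adjusted p = 0.00034). Klrk1, which encodes the activating receptor NKG2D of natural killer and cytotoxic T cells, stood at 722, 437 and 382 against 4363, 3991 and 3704 (-3.02 ± 0.22, adjusted p = 0.00034). Il2ra, the high-affinity interleukin 2 receptor chain of activated and regulatory T cells, stood at 175, 72.0 and 100.4 against 2079, 2021 and 1879 (-4.19 ± 0.28, adjusted p = 0.00034). Of 13 B and plasma cell genes 10 fell, but 5 did so without PEG 2 and 5 with NC 2 as the only NC library. Cd38, an enzyme that consumes NAD and marks plasma cells, stood at 2692, 2289 and 2373 against 5766, 9303 and 8701 (-1.67 ± 0.17, adjusted p = 0.00069).

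Costimulatory and checkpoint genes divided into 13 downregulated, 1 upregulated and 8 without a call, with a median of -2.12. Cd274, which encodes the checkpoint ligand PD-L1, stood at 474, 420 and 341 in PEG-fused PNAs, at 1718, 1863 and 1763 in NC PNAs and at 311 and 375 in Unop nerves. It fell by 2.12 ± 0.14 on the log2 scale (adjusted p = 0.00034), and the PEG-fused PNAs lay near the Unop nerves. Tnfrsf4, the costimulatory receptor OX40, fell by 3.66 ± 0.34 (adjusted p = 0.00055), and Cd40, the receptor through which T cells license antigen-presenting cells, by 2.36 ± 0.23 (adjusted p = 0.00061). Cd276, a B7 family protein also called B7-H3, moved the other way, at 6987, 9515 and 7824 against 3303, 3261 and 3759, a log2 fold change of 1.23 ± 0.13 (adjusted p = 0.00068). Vsir, an inhibitory B7 relative on myeloid cells, had overlapping groups and a log2 fold change of -0.25 ± 0.13 (adjusted p = 0.17).

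Of 14 genes of arginine, tryptophan and NAD metabolism 7 fell (50% of the list, against 7.28% of tested genes) and none rose, with a median of -1.07. Arg1, the arginase of repair-type macrophages, had the only positive value (0.91, adjusted p = 0.14). Ido1, which degrades tryptophan and is induced by interferon gamma, stood at 34.3, 3.74 and 7.50 in PEG-fused PNAs and at 799.8, 886 and 657 in NC PNAs, with Unop nerves at 2.15 and 0. Its log2 fold change of -6.11 ± 0.72 (adjusted p = 0.0011) rests on few reads in PEG-fused PNAs. Acod1, the mitochondrial enzyme that makes itaconate in activated macrophages, stood at 409, 722 and 437 against 2370, 5845 and 5175 (-3.04 ± 0.45, adjusted p = 0.0024). Ass1, which rebuilds arginine from citrulline, stood at 368, 329 and 371 against 1851, 3042 and 3190 (-2.88 ± 0.20, adjusted p = 0.00034). Outside that list, Sucnr1, the receptor for extracellular succinate, stood at 45.4, 11.2 and 10.3 against 899.9, 488 and 571, and Unop nerves at 471 and 255 exceeded the PEG-fused PNAs too (-5.09 ± 0.54, adjusted p = 0.00080). Of 13 redox and heme stress genes 2 fell, or 1 without NC 3, none rose, and 10 had positive log2 fold changes. Sod2, the manganese superoxide dismutase of mitochondria, fell by 1.62 ± 0.13 (adjusted p = 0.00037), and the metallothionein Mt2A was the other. Cat, Sod3 and Nqo1 were higher by adjusted p alone, at 0.54, 0.66 and 0.42 on the log2 scale. Ubd, which was in none of these metabolic lists, is a ubiquitin-like modifier that tags proteins for degradation. It stood at 674, 107.5 and 188.6 against 25058, 13536 and 12538 (-6.08 ± 0.69, adjusted p = 0.00097).

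All 19 glycolysis genes had negative log2 fold changes, with a median of -0.65. Only 3 were DEGs (1 without PEG 1 or without PEG 3, and 5 with DESeq2), and none of the 3 most significant members was. The DEGs were Hk3, Aldoa and Tpi1, at -1.41, -1.15 and -1.18. Aldoa was highest in NC 1 at 86631, against 34130 in NC 2. The Tpi1 entry was low, between 19.5 and 87.6 in PNAs. Adjusted p alone, without the fold threshold, held for 13 of the 19 genes, where 14.3% of all tested genes were lower and 15.5% higher by that criterion. Gpi, which converts glucose 6-phosphate, stood at 8339, 9482 and 8811 against 16448, 16122 and 13137 (-0.77 ± 0.11, adjusted p = 0.0020). Several glycolytic enzymes are also abundant in muscle, and Gapdh was highest in NC 1 at 71195, against 39738 in NC 2. Its log2 fold change was -0.77 (adjusted p = 0.026), and -0.46 (adjusted p = 0.079) with NC 2 as the only NC library. The part of muscle in this list was not tested. Mitochondrial-genome mRNAs did not include a DEG among 13, with a median of -0.08, and neither did 67 cytosolic ribosomal protein genes, with a median of -0.33.

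Innate immune genes gave a mixed account. Of 22 inflammatory cytokine and inflammasome genes 14 fell and none rose. The NF-kappa B feedback inhibitors Tnfaip3 and Nfkbia, which NF-kappa B itself induces, fell by 1.92 ± 0.16 (adjusted p = 0.00045) and 1.51 ± 0.15 (adjusted p = 0.00061). Of 25 complement genes, 6 fell and none rose. C3, the central component, stood at 8151, 2623 and 3306 against 28111, 39855 and 26344 (-2.90 ± 0.38, adjusted p = 0.0015), and Cfb of the alternative pathway fell by 2.79 ± 0.36 (adjusted p = 0.0014). Fcnb, a lectin of the complement system made by neutrophils and monocytes, stood at 1325, 261 and 671 against 9642, 12756 and 7573 (-3.99 ± 0.54, adjusted p = 0.0017).

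Of 17 macrophage markers 6 fell and none rose, and 3 fell with NC 2 as the only NC library. The median was -0.52, 15 had negative log2 fold changes, and 10 were lower and none higher by adjusted p alone. Fcgr3a, a receptor for antibody-coated targets, stood at 1068, 538 and 539 against 4434, 5848 and 7149 (-3.07 ± 0.33, adjusted p = 0.00081). Cd68, a lysosomal protein of all macrophages and 1 of 2 members with a positive value, stood at 20030, 20455 and 22451 against 14060, 18968 and 16383 (0.36 ± 0.22, adjusted p = 0.26). Both were far above their Unop levels of 74.1 and 40.0 for Fcgr3a and 1529 and 787 for Cd68.

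Genes of lipid-handling macrophages and lysosomes moved opposite to the interferon-induced genes. Of 23, 5 rose and none fell, 14 were higher by adjusted p alone, and the median was 0.68. Together they took 5%, 4.78% and 5.51% of reads in PEG-fused PNAs, 2.77%, 3.51% and 3.52% in NC PNAs, and 1.32% and 1.11% in Unop nerves. Spp1, which encodes osteopontin, a matrix and cytokine-like protein of macrophages and Schwann cells, stood at 92747, 109995 and 133087 against 21038, 12807 and 16517, with Unop nerves at 125466 and 88731 (2.75 ± 0.23, adjusted p = 0.00045). Abca1, the exporter of cholesterol to apolipoproteins, stood at 34345, 33502 and 32185 against 10997, 15560 and 15882 (1.26 ± 0.14, adjusted p = 0.0010). Gpnmb, a glycoprotein of phagocytes that have taken up lipid, stood at 111446, 125350 and 155280 against 47804, 58012 and 66965, far above Unop nerves at 6066 and 3530 (1.18 ± 0.23, adjusted p = 0.0072). The lysosomal proteases Ctsd (1.36 ± 0.16, adjusted p = 0.0012) and Ctsl (1.26 ± 0.18, adjusted p = 0.0020) rose as well. Apoe, the main lipid carrier of nerve macrophages, held between 517938 and 712062 normalized counts in NC PNAs and between 569109 and 672272 in PEG-fused PNAs (0.01 ± 0.28, adjusted p = 0.99).

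**Figure D4:**
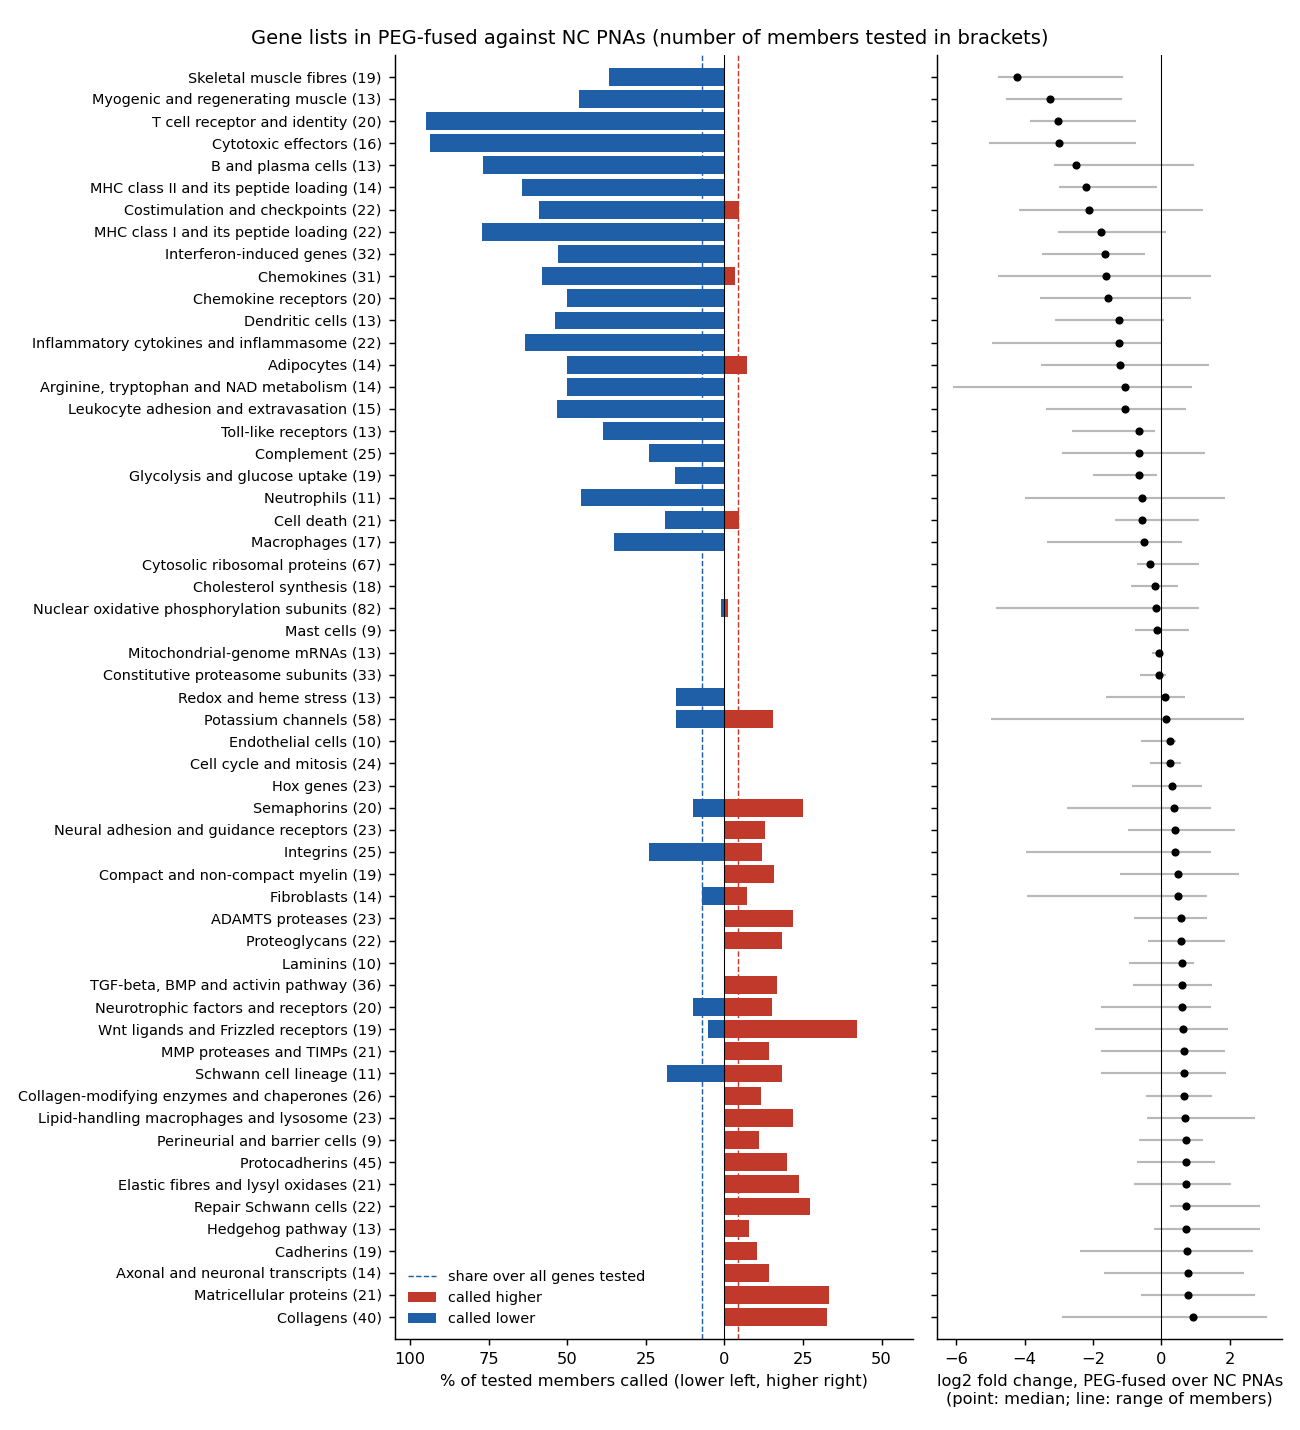
The left panel gives the percentage of tested members of each gene list that fell (blue, left of 0) or rose (red, right of 0), with dashed lines at the 7.28% and 4.42% of all tested genes; the right panel gives the median (point) and the lowest to highest member (line) of the log2 fold change. Muscle and immune lists lie at the top with negative medians, and matrix, nerve and repair lists at the bottom with positive medians.

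Extracellular matrix genes were higher in PEG-fused PNAs. Of 40 collagens, 13 rose and none fell, 21 were higher by adjusted p alone, and the median log2 fold change was 0.94. Without PEG 2, which had the highest share of collagen reads (3.05%, against 1.91% and 2.18% in PEG 1 and PEG 3), 8 rose, and with NC 2 as the only NC library 8 rose. Col8a1, a short-chain collagen of vessel walls and remodelling tissue, stood at 17933, 20825 and 18568 against 5309, 7703 and 8188 (1.46 ± 0.16, adjusted p = 0.00088). Col11a1, a fibril-nucleating collagen, stood at 2455, 3807 and 3192 against 575, 967 and 933 (1.95 ± 0.22, adjusted p = 0.00097), and Col12a1, which coats fibrils and bears tension, rose by 1.48 ± 0.22 (adjusted p = 0.0022). Col4a4 of basement membranes stood at 335, 366 and 369 against 154, 184 and 141, but at 5344 and 5336 in Unop nerves (1.16 ± 0.12, adjusted p = 0.00074). Col3a1, which held the most reads of the collagens, was above every NC PNA in each PEG-fused PNA, at 333577, 501780 and 366705 against 193225, 223598 and 303060 (0.74 ± 0.28, adjusted p = 0.076).

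Elastic fibre genes included 5 upregulated and 0 downregulated members of 21, with a median of 0.72. Beside Fbln5, Fbn2, the fibrillin of developing microfibrils, stood at 1490, 1798 and 1899 against 537, 311 and 438, with 155 and 125 in Unop nerves (2.04 ± 0.20, adjusted p = 0.00063). Eln, elastin itself, stood at 4086, 3561 and 5828 against 1974, 1878 and 1405 (1.34 ± 0.23, adjusted p = 0.0045). Loxl2, a cross-linking oxidase, stood at 3846, 10837 and 4223 against 1597, 1668 and 2506 (1.57 ± 0.38, adjusted p = 0.017), with PEG 2 far above its group.

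Matricellular proteins modulate cells without building fibres, and 7 of 21 rose, with a median of 0.79. Reln, the large glycoprotein reelin, stood at 5076, 6431 and 6016 against 2481, 2332 and 2397 (1.27 ± 0.14, adjusted p = 0.00095). The thrombospondins Thbs1 (1.30 ± 0.22, adjusted p = 0.0040) and Thbs4 (1.12 ± 0.26, adjusted p = 0.014) rose too, Thbs4 from 18555, 18779 and 9671 in NC PNAs to 28322, 39927 and 30747. Thbs4 was not a DEG without PEG 2 (0.98) or without NC 3 (0.81). Of 22 proteoglycans 4 rose, among them the small leucine-rich Ogn at 8396, 8752 and 8203 against 4049, 3828 and 4336 (1.05 ± 0.13, adjusted p = 0.0012). Proteases that trim matrix were represented by 5 upregulated genes of 23 ADAMTS members, or 3 without PEG 3 or without NC 2. Adamts4, an aggrecan-cleaving enzyme, stood at 2035, 2726 and 2188 against 1012, 909 and 816 (1.34 ± 0.17, adjusted p = 0.0013). Of 14 fibroblast genes 1 rose and 1 fell (7.14% each, against 4.42% and 7.28% of tested genes). Fap, a cell surface protease of activated fibroblasts, rose by 1.34 ± 0.19 (adjusted p = 0.0019), and Ly6c, which monocytes carry too, stood at 753, 336 and 410 against 10009, 6540 and 5481 (-3.92, adjusted p = 0.00045). Dcn, the decorin that all nerve fibroblasts make in quantity, was less than 2-fold apart (0.38 ± 0.16, adjusted p = 0.11).

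Secreted signals of development were represented in the upregulated set. Of 36 genes of the TGF-beta, BMP and activin pathway 6 rose and none fell, with a median of 0.62. The ligand Gdf11 stood at 1057, 1088 and 978 against 502, 494 and 444 (1.12 ± 0.12, adjusted p = 0.00075), and Fstl3, which binds and neutralises activins, stood at 622, 793 and 746 against 317, 322 and 209 (1.37 ± 0.18, adjusted p = 0.0016). Of 19 Wnt ligands and Frizzled receptors 8 rose (5 with NC 2 as the only NC library) and 1 fell (2 without PEG 2, NC 1 or NC 3). Wnt11 stood at 102, 91.6 and 149 against 31.3, 23.7 and 29.9 (1.95 ± 0.28, adjusted p = 0.0021), and the receptor Fzd3 rose by 1.35 ± 0.20 (adjusted p = 0.0023). The member that fell was Wnt4, at 22.2, 24.3 and 13.1 against 115, 63.5 and 59.8 (-1.93 ± 0.38, adjusted p = 0.0072).

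Shh, a ligand of the Hedgehog pathway, stood at 348, 214 and 390 in PEG-fused PNAs, at 64.3, 28.0 and 37.6 in NC PNAs and at 413 and 366 in Unop nerves. The Unop nerves thus exceeded every NC PNA. The log2 fold change of Shh between PEG-fused and NC PNAs was 2.88 ± 0.33 (adjusted p = 0.00099). Shh was the 1 DEG among 13 Hedgehog genes, where 9 were higher by adjusted p alone. The receptor subunit Smo stood at 983, 888 and 995 against 517, 473 and 508 (0.93 ± 0.09, adjusted p = 0.00061), and Gli1, a transcription factor that the pathway itself induces, at 1084, 1039 and 1242 against 644, 648 and 577 (0.84 ± 0.10, adjusted p = 0.0010). For both the groups lay apart by slightly less than the fold threshold. Without NC 1, 3 Hedgehog genes were DEGs, and with NC 2 as the only NC library 5 were.

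Of 22 genes of repair Schwann cells, the injury-induced form, all had positive log2 fold changes, 6 rose (8 without NC 1, 4 with NC 2 as the only NC library) and 11 were higher by adjusted p alone. Shh, already given as a Hedgehog gene, was among the 6. Ngfr, the p75 neurotrophin receptor, stood at 15448, 20293 and 17141 against 6423, 7128 and 5706, and both kinds of graft exceeded Unop nerves at 1140 and 713 (1.45 ± 0.18, adjusted p = 0.0013). Btc, the growth factor betacellulin, stood at 2585, 3160 and 2109 against 918, 1017 and 960 (1.42 ± 0.20, adjusted p = 0.0021), and Sox2, which keeps Schwann cells immature, rose by 1.15 ± 0.17 (adjusted p = 0.0022). Jun, the transcription factor that drives the repair state, stood at 7146, 8808 and 6345 against 4742, 5201 and 4968 (0.57 ± 0.13, adjusted p = 0.014). Among lineage genes, S100b stood at 16606, 16280 and 16428 against 7649, 6242 and 4875, with Unop nerves at 167369 and 153431 (1.42 ± 0.16, adjusted p = 0.00088). Sox8 rose by 1.89 ± 0.21 (adjusted p = 0.00089). Of 11 lineage genes 2 rose (4 without NC 1) and 2 fell, Gfra3 and Fabp7, where 0 fell without PEG 2, NC 2 or NC 3. Gfra3 lost its adjusted p in 13 alternatives, among them edgeR, PNAs only, the robust fit and the replicate block, and Fabp7 in 6.

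Myelin genes were far below the unoperated level in every PNA. The 19 members took 0.226%, 0.231% and 0.253% of reads in PEG-fused PNAs and 0.298%, 0.110% and 0.0965% in NC PNAs. Unop nerves stood at 7.39% and 9.37%. NC 1 thus held a larger myelin share than any PEG-fused PNA. Of the 19 genes 3 rose in PEG-fused PNAs and none fell, and 8 rose without NC 1. Log2 fold changes were positive in 11 and negative in 8. Nfasc, an adhesion molecule of the node and paranode, stood at 263, 247 and 231 against 89.4, 58.1 and 39.6 (2.04 ± 0.27, adjusted p = 0.0016).

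Nrcam, the partner of neurofascin at the node, stood at 3978, 4103 and 4131 in PEG-fused PNAs, at 837, 864 and 1017 in NC PNAs and at 2044 and 3168 in Unop nerves (2.17 ± 0.16, adjusted p = 0.00034). Of 23 neural adhesion and guidance receptors it was 1 of 3 that rose, or of 5 without NC 3. Of 14 axonal and neuronal transcripts 2 rose, and 4 without PEG 3 or without NC 1. Uchl1, a neuronal ubiquitin hydrolase that injured Schwann cells also express, stood at 2470, 3180 and 2881 against 710, 908 and 856 (1.78 ± 0.12, adjusted p = 0.00034). Nefm, the medium neurofilament chain of axons, stood at 314, 287 and 607 against 132, 33.3 and 75.2, with Unop nerves at 747 and 879 (2.44 ± 0.48, adjusted p = 0.0072). Protocadherins, homophilic adhesion proteins of neurons and glia, gave 9 upregulated and 0 downregulated genes of 45. Pcdh17 stood at 385, 466 and 468 against 174, 128 and 138 (1.58 ± 0.18, adjusted p = 0.00099). The gamma cluster shares exons among its transcripts, so its members' reads are not independent.

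Semaphorins, which steer axons and also signal between immune cells, split by class. Of 20, 5 rose, all of classes 3 and 5, and 2 fell, both of class 4. Sema4d, made by lymphocytes, stood at 693, 385 and 528 against 3243, 3857 and 3566 (-2.77 ± 0.19, adjusted p = 0.00034), and Sema4a, of antigen-presenting cells, fell by 1.87 ± 0.21 (adjusted p = 0.00088). The secreted Sema3b stood at 7054, 8542 and 6396 against 3579, 3271 and 2229, with Unop nerves at 34101 and 40797 (1.29 ± 0.19, adjusted p = 0.0022).

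Ion channels and integrins held DEGs in both directions. Of 58 potassium channel genes 9 rose and 9 fell (15.5% each, against 4.42% and 7.28% of tested genes), and 5 fell without PEG 2. Kcnd3, a subunit of fast-inactivating channels, stood at 564, 781 and 484 against 169, 252 and 252, with Unop nerves at 1961 and 1976 (1.43 ± 0.21, adjusted p = 0.0023). Kcnab2, an auxiliary subunit of Kv1 channels, stood at 236, 222 and 291 against 547, 692 and 576 (-1.28 ± 0.16, adjusted p = 0.0013). Kcna7, a channel of striated muscle, fell by 4.97 ± 0.78 (adjusted p = 0.0029), and muscle transcripts were high in NC 1 and NC 3. Its log2 fold change lay between -5.75 and -3.41 across the alternatives, among them NC 2 as the only NC library. The part of muscle in this difference was not tested. Of 25 integrins 3 rose (0 without PEG 2) and 6 fell. Itga2b, the platelet and progenitor integrin chain, stood at 144, 92.6 and 100.4 against 407, 928 and 888 (-2.65 ± 0.32, adjusted p = 0.0012). Itga7, a laminin receptor chain of Schwann cells and muscle, was among the most precise increases, at 5806, 6422 and 6189 against 2942, 3020 and 3081 (1.03 ± 0.07, adjusted p = 0.00034), and its log2 fold change without PEG 2 was 0.99.

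Of 21 cell death genes 4 fell (2 without NC 2) and 1 rose, or 19% and 4.76%, against 7.28% and 4.42% of tested genes. Casp8, the caspase that death receptors activate, stood at 768, 680 and 617 against 1404, 1634 and 1363 (-1.09 ± 0.12, adjusted p = 0.00096). Gsdme, a pore-forming gasdermin, stood at 194, 210.4 and 189 against 95.6, 78.5 and 104, with Unop nerves at 229.7 and 245 (1.09 ± 0.16, adjusted p = 0.0022), and it was not a DEG without NC 2.

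Other genes with large or precise increases fell outside these groups. Syt4, a synaptotagmin of regulated secretion, stood at 444, 363 and 292 against 8.94, 26.9 and 28.0, with Unop nerves at 20.4 and 10.01 (4.18 ± 0.46, adjusted p = 0.00088). Alkal2, a ligand of the receptor tyrosine kinase ALK, stood at 186.3, 110.3 and 298.3 against 14.3, 24.7 and 38.6 (2.88 ± 0.52, adjusted p = 0.0052). Adcy8, an adenylyl cyclase activated by calcium, stood at 139, 148 and 163 against 14.3, 28.0 and 29.9 (2.65 ± 0.29, adjusted p = 0.00087), and Pde1c, a phosphodiesterase that degrades cyclic nucleotides when calcium rises, stood at 643, 711 and 595 against 216, 176 and 152 (1.84 ± 0.15, adjusted p = 0.00042). All 4 had groups well apart. Gadd45a, a stress-induced regulator of growth arrest, stood at 4609, 4736 and 3888 against 1202, 947 and 1114 (2.02 ± 0.15, adjusted p = 0.00034). Of 24 cell cycle genes none was a DEG. By adjusted p alone 5 were higher, among them the mitotic kinesin Kif20a (0.50 ± 0.10, adjusted p = 0.0083), where 15.5% of all tested genes were higher.

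**Figure D5:**
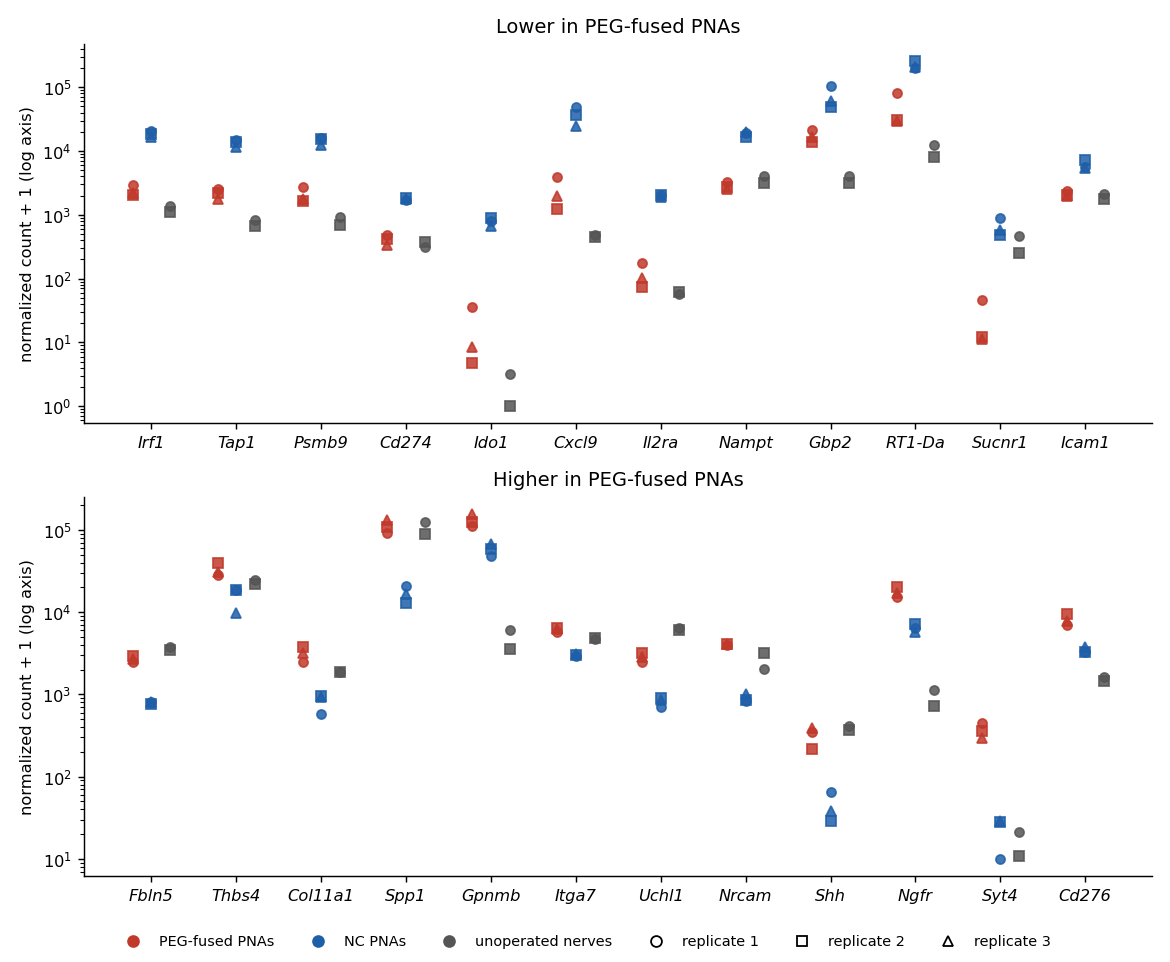
Normalized read counts plus 1 on a log axis for 12 downregulated (top) and 12 upregulated (bottom) genes, with 1 point per library, colour for the group and shape for the replicate. In each gene the 3 PEG-fused PNAs lie on one side of the 3 NC PNAs; for Cd274 and Icam1 the PEG-fused PNAs lie near the unoperated nerves.

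Muscle transcripts are the part of the comparison where NC PNAs disagree among themselves. Of 19 skeletal muscle fibre genes 7 fell and none rose, with a median of -4.22. All 19 fell with edgeR and with DESeq2 on the same libraries, and 18 fell in limma with replicate number as a block, against 2 with robust empirical Bayes. Without NC 2 18 fell, without PEG 2 1 fell, and with NC 2 as the only NC library 1 fell. Leaving out PEG 1, PEG 3, NC 1 or NC 3 gave 3, 2, 2 and 2. Myh2, a fast myosin heavy chain, stood at 4038, 559 and 1777 in PEG-fused PNAs and at 218632, 3086 and 87548 in NC PNAs (-4.61 ± 1.53, adjusted p = 0.053). NC 2 lay inside the range of PEG-fused PNAs, and without NC 2 the gene was a DEG (-6.44, adjusted p = 0.0043). With all libraries, Myh2 was a DEG by edgeR (adjusted p = 0.028), by DESeq2 (adjusted p = 0.00037) and in limma with the replicate block (adjusted p = 0.018). With NC 2 as the only NC library there were 871 upregulated and 952 downregulated genes, which included 480 of the 706 and 793 of the 1163. The calls for Irf1, Tap1, Cxcl9, Ciita, Cd274, Ido1, Fbln5, Nrcam, Shh and Ngfr held in that fit. Those for Gpnmb, Pf4, Loxl2, Thbs4, Col4a4, Sox2, Wnt4, Tap2, RT1-Ba and Ccl12 did not. Nor did those for Ccl2, RT1-CE10, Mt2A, Gfra3 and Fabp7.

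Of 14 adipocyte genes 7 fell, 4 without NC 1 and 1 with NC 2 as the only NC library, and Dgat2, which makes triglycerides, rose by 1.41 ± 0.20 (adjusted p = 0.0021). The list as a whole took between 0.0450% and 0.0668% of reads in a PNA, against 0.502% and 0.311% in Unop nerves. None of 9 mast cell genes and none of 23 Hox genes was a DEG, with all libraries in the fit. With NC 2 as the only NC library 8 Hox genes rose, and without NC 3 3 did.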

How the data were processed

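Total RNA from the 8 animals, 3 with PEG-fused and 3 with NC grafts and 2 unoperated (RIN between 7.1 and 8.2) was made into stranded poly-A libraries and sequenced as paired-end reads. The authors used TopHat2 to align reads to Rnor 6.0 and HTSeq-count to assign them to Ensembl genes, and deposited the signal as counts divided by DESeq2 median-of-ratios size factors (tool versions are not given in the sources used here). Fold changes and p-values from the authors' own comparisons were also deposited and were not used. The log2 scale with a pseudocount of 1, used here on the deposited signal, shrinks fold changes of low genes.

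All values (100%) were whole reads within 0.001 after multiplication by a size factor per library, which gave between 32472925 and 39959620 reads on genes. Genes reaching 10 normalized counts in 2 or more PNAs were tested with limma 3.58.1 (trend; R 4.3.3) on log2(normalized count + 1), with all 8 libraries as group means, the contrast PEG minus NC, and Benjamini-Hochberg adjustment. Each library came from a separate animal, and the sources used here give no batch. Just inside the filter the second-highest PNA was at 10.2 and just outside at 9.83 normalized counts. Of tested genes, 191 passed only through PEG-fused PNAs and 303 only through NC PNAs, among them 72 upregulated and 149 downregulated genes, which had to differ. On simulated counts for these 15968 genes limma recovered 200 of 200 changed genes. The share of real differences that limma finds in the PNAs, including those near the fold threshold, was not tested. Alternatives were edgeR 4.0.16 and DESeq2 1.42.0 on the recovered reads, TMM scaling, other filters and pseudocounts, PNAs only, a robust fit, a replicate block, other fold thresholds and each library left out. NC 2 as the only NC library, assumed to vary like the other groups, was added after the data were seen.

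The comparison and the gene lists were chosen with earlier results of these data known. Some genes are in more than 1 list, so the lists are not independent. Shh is in the Hedgehog and repair Schwann cell lists, and Spp1 in the lipid-handling macrophage and matricellular lists. Cd38 is in the B cell and NAD lists. Genes were named by smallest adjusted p, largest fold, rank in their list (3 smallest p, 2 highest counts) or mention in the study. Largest-fold genes were taken only if the groups did not overlap and the higher group passed a minimum mean count. The DEGs among glycolysis genes were named as such. A further 37 genes, among them Igtp, Mx1, Isg15, Ifit3, Nlrc5, Canx, Pf4, Acod1, Mt2A, Nqo1, Gpnmb, Ctsl, Col11a1, Col12a1, Loxl2, Thbs4, Wnt4, Gfra3, Fabp7, Kcna7, Gsdme and genes of the genomic runs, were named after their values were seen. RefSeq (GRCr8) gave promoters and gene order by symbol. Counting can divide or drop reads of near-identical genes. A few genes are not reported here.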

Additional observations from a re-analysis of the deposited data

How the results depend on the processing

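The counts of 706 upregulated and 1163 downregulated genes depended on the threshold. Testing against 2-fold (treat) called 31 and 142, and adjusted p without a fold threshold called 2477 and 2290. With NC 2 as the only NC library, an alternative chosen after the data were seen, 871 and 952 were called. Leaving out 1 library gave between 450 (without PEG 2) and 781 upregulated and between 871 and 1243 downregulated genes. Other filters, pseudocounts, scalings and tools stayed within 1.5 times of both counts, from 562 and 971 with the stricter filter to 745 and 1324 with edgeR and 729 and 1395 with DESeq2. Replicate numbers are shared by PEG-fused and NC PNAs. Deviations from the group means correlated at 0.12, 0.11 and -0.06 between same-numbered PNAs, and at -0.17 to 0.11 between differently numbered ones. These values do not settle whether the numbers pair the PNAs. The main fit used no pairing, and a fit with replicate number as a block called 609 and 1060. Of the 119 named DEGs checked, 13 had an adjusted p of 0.05 or more in at least 1 alternative, and losses by the fold threshold come on top. Outside those 13, the lowest log2 fold changes of Col4a4, Sox2, Itga7 and Gsdme were 0.95, 0.9999, 0.99 and 0.98, below the threshold of 1. Canx and Apoe, both near 0, changed sign: the log2 fold change of Canx ranged from -0.030 to 0.080 on leaving out 1 library, and the log2 fold change of Apoe ranged from -0.11 to 0.12, was -0.00137 with DESeq2 and was -0.21 with NC 2 as the only NC library. The causes of these changes were not tested. Of 19 skeletal muscle fibre genes, 7 fell with limma and 19 with edgeR or DESeq2.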
